A study of Homo sapiens with 6 samples.

Results

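The aldehyde dehydrogenase (ALDH) genes encode enzymes that use NAD+ or NADP+ to oxidise aldehydes to carboxylic acids. Here 10 of them were followed in HCC827 cells: ALDH1A1, ALDH1A3, ALDH1B1, ALDH2, ALDH3A2, ALDH3B1, ALDH6A1, ALDH7A1, ALDH9A1 and ALDH18A1. They were taken by gene symbol from a table of 28395 genes, and all 10 were listed. HCC827 is a lung adenocarcinoma line whose growth depends on a mutant, constitutively active EGFR, and erlotinib inhibits the EGFR kinase. Cells received either the vehicle DMSO (3 libraries) or erlotinib at 1 µM (3 libraries), each for 24 h, and poly(A) RNA was sequenced. Both groups are the same unmodified line, and the labels do not say whether the libraries of a group came from separate cultures, so p-values measure the spread between these libraries, which may be technical. Total reads on genes were 20858083, 24641819 and 21172884 in the DMSO libraries and 21944007, 20760204 and 21678395 in the erlotinib libraries.

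Members of the family differ in substrate and compartment. ALDH1A1 and ALDH1A3 make retinoic acid from retinaldehyde in the cytosol, ALDH2 and ALDH1B1 oxidise acetaldehyde and related small aldehydes in mitochondria, and ALDH3A2 and ALDH3B1 act on fatty aldehydes. ALDH6A1, ALDH7A1 and ALDH9A1 work in the breakdown of valine, in the breakdown of lysine and in the synthesis of carnitine. ALDH18A1, despite its name, is a synthase that reduces glutamate on the way to proline. High ALDH activity is a widely used flow cytometry marker of stem-like and drug-tolerant tumour cells, which was the reason to look at these genes after EGFR inhibition. RNA levels were measured here, not enzyme activity.

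The values are signal, which is reads divided by a size factor for each library. Of the 10 genes, 9 reached the mean signal of 10 needed for the test, and all 9 exceeded it in both groups. With erlotinib 6 of these 9 were higher (ALDH1A3, ALDH2, ALDH3A2, ALDH3B1, ALDH6A1 and ALDH7A1) past the threshold of 0.05 (limma, p-values adjusted over 14215 genes by Benjamini-Hochberg), where 35.3% of all genes tested were higher. ALDH1B1 and ALDH18A1 were lower, 2 of 9, where 35.4% of all genes were lower and 70.7% passed in either direction. ALDH9A1 passed in neither direction, and ALDH1A1 was essentially not detected. Changes of at least 1 log2 unit were found for 3 genes upward (17% of all genes) and 1 gene downward (10.8%). The groups did not overlap for 6 genes that were higher (36.7% of all genes) and 2 that were lower (36.9%), beside 73.6% of all genes in either direction. The median log2 fold change of the 9 genes was 0.53, beside 0.02 for all genes tested. Scaling to total reads moved the median of all genes to 0.19 and ALDH7A1, the middle gene of the 9, to 0.71. Every direction given here for the 9 genes was the same under that scaling.

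**Figure D1:**
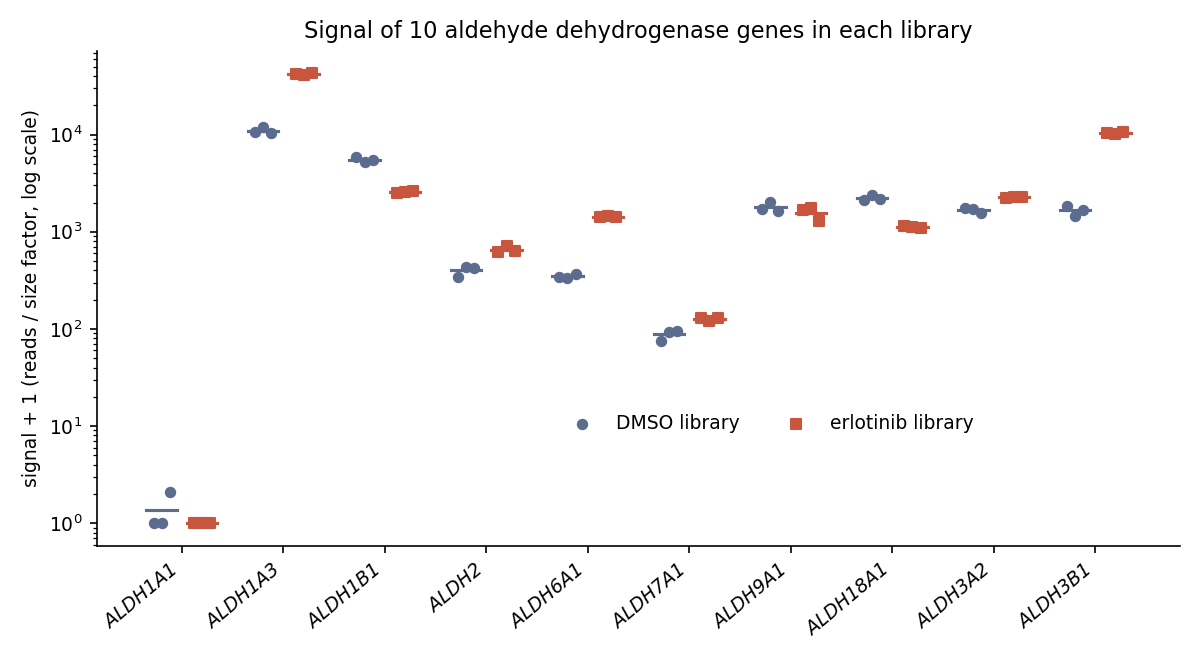
Signal plus 1 (reads divided by the library's size factor, log axis) of the 10 ALDH genes in each DMSO library (circles) and erlotinib library (squares), with a line at the mean of each group. ALDH1A3 and ALDH3B1 were the highest in every erlotinib library, while ALDH1A1 lay at the bottom of the axis in both groups.

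The promoters of the retinoic acid enzymes are shown because their RNA levels lay at opposite ends of the set. The sequences are the 250 bases upstream of the annotated start in RefSeq on GRCh38.p14, written 5′ to 3′ on the strand of the gene, and windows were found for 9 of the 10 genes. ALDH1A1 is at chr9:72953054-72953303 on the minus strand, and ALDH1A3 is at chr15:100879581-100879830 on the plus strand. Capitals mark CCAAT boxes (CCAAT) and GC boxes (GGGCGG) on either strand, and overlapping matches were counted separately.
ALDH1A1: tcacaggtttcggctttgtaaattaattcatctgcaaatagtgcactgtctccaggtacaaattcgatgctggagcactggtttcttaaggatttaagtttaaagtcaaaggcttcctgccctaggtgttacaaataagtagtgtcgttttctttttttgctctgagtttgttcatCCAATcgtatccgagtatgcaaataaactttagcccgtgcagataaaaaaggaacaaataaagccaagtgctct
ALDH1A3: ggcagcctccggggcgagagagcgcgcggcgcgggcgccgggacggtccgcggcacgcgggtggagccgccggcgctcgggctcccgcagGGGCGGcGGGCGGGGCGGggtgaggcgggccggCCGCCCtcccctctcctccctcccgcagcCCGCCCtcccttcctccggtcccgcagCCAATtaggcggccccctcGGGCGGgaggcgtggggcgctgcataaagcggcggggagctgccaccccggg
The ALDH1A1 window was 38.4% G or C, higher than only 10.1% of the 35116 windows of this length, and held 6 CpG dinucleotides and 1 CCAAT box, at position -74 from the start. The ALDH1A3 window was 82.4% G or C, higher than 98.6% of windows, with 38 CpG dinucleotides against a median of 11. It held 6 GC boxes and 1 CCAAT box, at -71. At least 1 GC box occurs in 42.6% of all windows and at least 6 occur in 2.22%, while 32% of windows hold a CCAAT box.

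ALDH6A1 and ALDH18A1 are shown next, as a gene that rose and a gene that fell with erlotinib. ALDH6A1 is at chr14:74084454-74084703 and ALDH18A1 at chr10:95656712-95656961, both on the minus strand. Capitals here mark CCAAT boxes, E-boxes (CACGTG) and the core of the cyclic AMP response element (TGACGT) on either strand.
ALDH6A1: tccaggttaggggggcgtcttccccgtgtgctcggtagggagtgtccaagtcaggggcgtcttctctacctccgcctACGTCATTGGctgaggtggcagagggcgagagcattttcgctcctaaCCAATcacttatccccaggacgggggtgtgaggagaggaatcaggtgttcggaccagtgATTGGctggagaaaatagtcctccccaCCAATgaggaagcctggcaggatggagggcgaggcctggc
ALDH18A1: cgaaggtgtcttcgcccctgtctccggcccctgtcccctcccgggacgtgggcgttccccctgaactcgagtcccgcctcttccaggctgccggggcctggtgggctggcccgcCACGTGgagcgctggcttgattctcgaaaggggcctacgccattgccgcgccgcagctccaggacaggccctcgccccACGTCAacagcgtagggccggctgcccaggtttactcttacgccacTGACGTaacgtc
ALDH6A1 held 4 CCAAT boxes, a number reached by 0.874% of all windows, and 1 TGACGT match at -173 that shares 1 base with a CCAAT box. ALDH18A1 held 1 E-box, at -136, and 2 TGACGT matches, at -58 and -12. E-boxes occur in 6.34% and TGACGT in 7.1% of all windows. The letters of an AP-1 site (TGANTCA), an antioxidant response element core (TGACNNNGC), a forkhead site (GTAAACA) and a TATA box (TATAAA) were in 0 of the windows of the 9 genes, beside 6.57%, 10.9%, 2.98% and 10.7% of all windows. These matches describe the letters in these windows only, and the motifs were chosen after values and sequences had been seen.

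ALDH1A3 (Entrez 220, chr15:100879831-100916626, plus strand) was the most abundant gene of the set and rose further with erlotinib. Its signal was 10516, 11901 and 10491 in the DMSO libraries and 42531, 41012 and 42845 in the erlotinib libraries. The lowest erlotinib library was thus far above the highest DMSO library. The means were 10969 ± 807 and 42129 ± 980 (SD, n = 3), a 3.85-fold rise with a log2 fold change of 1.94 (SE 0.07, 95% interval 1.81 to 2.08, adjusted p = 6.5e-16, limma). On the log2 scale 6.30% of all genes rose more. The antisense RNA ALDH1A3-AS1 covers 1715 of its 5335 exon bases. The strand counted is not stated, so reads of the pair cannot be told apart there. The mean signal counted for ALDH1A3-AS1 was 28.8 with DMSO and 35.7 with erlotinib. Its part in the ALDH1A3 values was not tested.

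ALDH1A1 (Entrez 216, chr9:72900671-72953053, minus strand), the ALDH1A isoform most often used as a stem cell marker, had 1 read in the 66672786 reads of the DMSO group and 0 in the 64382606 reads of the erlotinib group. A count of 0 still allows 3 reads, or an RPKM (reads per kilobase of exon, scaled to the total reads of the library) of 0.0164, over the erlotinib group. ALDH1A3 was at least 23651-fold above that limit in the same libraries. This limit and the fold above it cover counting error only. ALDH1A2, the remaining ALDH1A gene, had 0 reads in all 6 libraries, so ALDH1A3 was the only ALDH1A gene with more than 1 read in these cells.

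Other genes of retinoic acid metabolism were read from a list of 20, of which 11 were tested. Among these 6 were higher (35.3% of all genes) and 2 lower (35.4%), and the median log2 fold change was 0.60. CYP26A1, which degrades retinoic acid, rose from a mean signal of 46.4 ± 12.3 to 275 ± 22.9 (log2 fold change 2.57). DHRS3, which returns retinaldehyde to retinol, rose by 1.94 log2 units, RETSAT by 0.82 and the receptor RARG by 0.65. RDH11, a retinol dehydrogenase, fell by 1.25 and the binding protein CRABP2 fell by 1.00 log2 units (limma, each of these 6 with an adjusted p-value no larger than 8.9e-07). RDH10, also a retinol dehydrogenase and named after its values were seen, rose from a mean signal of 3149 to 4925 (log2 fold change 0.65, adjusted p = 5.0e-08, limma). RDH13 and RXRB, which were not tested, were listed at 0, but their whole transcripts also match alternate contigs of the genome, where reads would not map uniquely, so these zeros are uncertain.

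ALDH1B1 (Entrez 219, chr9:38392702-38398661, plus strand) was the second most abundant gene of the set with DMSO and fell with erlotinib. Its signal was 5846, 5236 and 5537 with DMSO and 2492, 2594 and 2632 with erlotinib. Every erlotinib library was below every DMSO library. The mean went from 5539 ± 305 to 2573 ± 72.7, which is 2.15-fold lower, with a log2 fold change of -1.11 (SE 0.07, adjusted p = 6.3e-12, limma). Only 9.32% of all genes fell more.

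ALDH2 (Entrez 217, chr12:111766933-111817532, plus strand), the main mitochondrial acetaldehyde dehydrogenase, moved the other way from a low level. Its signal was 345, 433 and 423 with DMSO and 615, 715 and 634 with erlotinib, without overlap. The rise was 1.64-fold (log2 fold change 0.71, SE 0.11, adjusted p = 1.1e-05, limma), and 24.2% of all genes rose more. Stretches covering 27.3% of its transcript resemble other loci, at 87.5% identity over the longest. Among 18 other enzymes of aldehyde and alcohol metabolism, 11 were tested, 3 were higher (35.3% of all genes) and 3 lower (35.4%). Their median log2 fold change was -0.16. AKR1C3 (log2 fold change 2.53), AKR1A1 (0.72) and CBR4 (0.35), all aldehyde or ketone reductases, were higher. The aldehyde oxidase AOX1 (-1.73), the aldose reductase AKR1B1 (-0.93) and the carbonyl reductase CBR1 (-0.60) were lower. CBR4 lost its call without the erlotinib library in column 5 (0.29, adjusted p = 0.056, limma), which left 2 genes higher.

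ALDH3B1 (Entrez 221, chr11:68008547-68029276, plus strand), which oxidises medium- and long-chain aldehydes such as those from lipid peroxidation, had the largest change of the 9 genes tested. Its signal was 1823, 1460 and 1680 with DMSO and 10272, 10122 and 10587 with erlotinib. The erlotinib libraries lay within a narrow range well above the DMSO libraries. The means were 1654 ± 183 and 10327 ± 237, a 6.26-fold rise with a log2 fold change of 2.65 (SE 0.08, 95% interval 2.49 to 2.80, adjusted p = 5.4e-17, limma). By log2 fold change it ranked 413 of 14215 genes. A stretch of 390 bases of its transcript is 96.2% identical to the neighbouring family gene ALDH3B2, and reads from that stretch are uncertain between them. ALDH3B2 was much less abundant, with signals of 39.7, 7.43 and 15.0 with DMSO and 64.6, 76.2 and 59.0 with erlotinib. It was also higher (log2 fold change 1.93, SE 0.43, adjusted p = 5.1e-04, limma), although its DMSO libraries spread widely. The log2 fold change was 2.53 without DMSO replicate 1 and 1.40 without DMSO replicate 2, and it stayed past the threshold in both cases.

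ALDH3A2 (Entrez 224, chr17:19648136-19677596, plus strand), the microsomal fatty aldehyde dehydrogenase that is defective in Sjögren-Larsson syndrome, rose by less. Its signal was 1742, 1725 and 1559 with DMSO and 2228, 2296 and 2262 with erlotinib. The groups did not overlap, and the log2 fold change was 0.43 (SE 0.07, adjusted p = 2.2e-05, limma), a 1.35-fold rise that was exceeded by 32.6% of all genes. Of 10 genes of fatty aldehyde and sphingolipid metabolism, which supply or share its substrates, all 10 were tested. Among these 4 were higher (35.3% of all genes) and 2 lower (35.4%), and the median log2 fold change was 0.32. PHYH (1.40) and PECR (0.92), both peroxisomal, were higher, as were SGPP2 (0.73) and SGPL1 (0.54), the lyase that releases a fatty aldehyde from sphingosine phosphate. SPHK1 (-1.39), the kinase upstream of SGPL1, and FAR1 (-1.30), which reduces fatty acyl-CoA to fatty alcohol, were lower.

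ALDH6A1 (Entrez 4329, chr14:74056847-74084453, minus strand), the methylmalonate semialdehyde dehydrogenase of valine and pyrimidine breakdown, rose from a low level with little spread. Its signal was 341, 331 and 369 with DMSO and 1429, 1450 and 1423 with erlotinib. The separation between the groups was many times the spread within them. The mean rose 4.13-fold, from 347 ± 19.9 to 1434 ± 14.5 (log2 fold change 2.04, SE 0.09, adjusted p = 5.4e-14, limma), and 5.54% of all genes rose more. BBOF1 on the opposite strand shares 670 of the 6682 exon bases of ALDH6A1, and its own mean signal was 72.8 with DMSO and 250 with erlotinib. Whether reads of 1 gene were counted for the other was not tested. The other genes of branched-chain amino acid breakdown went both ways, with 22 of 22 tested. Among these 10 were higher (35.3% of all genes) and 7 lower (35.4%), with a median change of 0.16 log2 units. The number higher was 5 without DMSO replicate 1 and 6 at a threshold of 0.01. HIBADH, the dehydrogenase just before ALDH6A1 in the valine pathway, was higher (0.59), as were AUH (0.90) and BCKDHA (0.59). DLD (-0.80), HSD17B10 (-0.76), ACAT1 (-0.64) and PCCB (-0.61) were lower.

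ALDH7A1 (Entrez 501, chr5:126541841-126595219, minus strand), also called antiquitin, oxidises aminoadipic semialdehyde in lysine breakdown and had the least certain call. Its signal was 74.9, 91.0 and 94.2 with DMSO and 128, 119 and 129 with erlotinib. The groups did not overlap, but they lay close together, and the log2 fold change was 0.53 (SE 0.19, adjusted p = 0.0187, limma). The call was lost without DMSO replicate 1 (log2 fold change 0.43, adjusted p = 0.065), without the erlotinib library in column 4 (0.52, adjusted p = 0.057) and without that in column 6 (0.51, adjusted p = 0.06). A stretch of 1815 bases of its transcript is 97.2% identical to the pseudogene ALDH7A1P1 on the same chromosome, and reads that map to both were not counted, so its low level is uncertain. Of 6 other genes of lysine breakdown, 4 had a mean signal of at least 10 in both groups. Among these 2 were higher (35.3% of all genes) and 0 lower (35.4%), with a median of 0.30 on the log2 scale. AASS, the entry enzyme of the saccharopine route that leads to ALDH7A1, rose from a mean signal of 30.4 to a mean of 164 (log2 fold change 2.41), and DHTKD1 rose by 0.57. PIPOX (mean signal 1.69 to 59.3) and CRYM (2.61 to 33.7), of the pipecolate route, were higher from almost no reads, and they passed the filter on low values through the erlotinib group alone.

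ALDH9A1 (Entrez 223, chr1:165662216-165698562, minus strand) makes the carnitine precursor butyrobetaine and was the tested gene of the set that passed in neither direction. Its signal was 1721, 2009 and 1623 with DMSO and 1670, 1752 and 1277 with erlotinib. The groups overlapped, with 1 erlotinib library below all others. The log2 fold change was -0.20 (SE 0.10, 95% interval -0.41 to 0.02, adjusted p = 0.1, limma), and the value depended on single libraries and on the scaling. It passed as lower without the erlotinib library in column 5 (-0.28, adjusted p = 0.033), but was -0.05 without that in column 6 (adjusted p = 0.64), -0.11 without DMSO replicate 2 (adjusted p = 0.32) and -0.02 under scaling to total reads (adjusted p = 0.9). Of 10 genes of carnitine synthesis and amine oxidation, 6 had a mean signal of at least 10 in both groups. Among these 4 were higher (35.3% of all genes) and 1 lower (35.4%), with a median of 0.62 on the log2 scale. ABAT, the transaminase that degrades GABA, rose from 12.4 ± 4.18 to 245 ± 35.7 (log2 fold change 4.23), and AOC1 (1.58) and GAD1 (0.82) were also higher, as was PAOX from almost no reads (mean signal 1.80 to 19.4, tested through the erlotinib group alone), while spermine oxidase SMOX was lower (-0.83). Without the erlotinib library in column 6, 2 genes of the list were lower. The genes named so far act on amines. The carnitine genes of the list, named after their values were seen, did not share a direction. TMLHE was higher (0.42, adjusted p = 0.00831, limma), SLC22A5 was not called (-0.30) and BBOX1 was not tested.

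ALDH18A1 (Entrez 5832, chr10:95605941-95656711, minus strand), the pyrroline-5-carboxylate synthase, fell with erlotinib. Its signal was 2122, 2362 and 2160 with DMSO and 1150, 1112 and 1082 with erlotinib. All erlotinib libraries were below all DMSO libraries. The mean was 1.98-fold lower (log2 fold change -0.99, SE 0.08, adjusted p = 3.0e-10, limma), and 11.2% of all genes fell more. Of 9 other genes of proline and glutamate metabolism, 6 were tested, 2 were higher (35.3% of all genes) and 3 lower (35.4%). Their median log2 fold change was -0.02. PYCR1 (-0.22), a reductase that completes proline synthesis, and GLUD1 (-0.18) were among the lower genes, and GLUL (1.46), which makes glutamine from glutamate, was among the higher. The calls of PYCR1 and GLUD1 were lost under scaling to total reads (-0.04, adjusted p = 0.65, and 0.0027, adjusted p = 0.97) and at a threshold of 0.01. They were also lost without the erlotinib library in column 4 (-0.16, adjusted p = 0.15, and -0.17, adjusted p = 0.092, limma). In each of these cases 1 gene of the list was lower. PYCR1 further lost its call without DMSO replicate 3 (-0.17, adjusted p = 0.099, limma). GLUD1 further lost its call without DMSO replicate 1 (-0.14, adjusted p = 0.11, limma) or the erlotinib library in column 6 (-0.16, adjusted p = 0.088, limma).

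**Figure D2:**
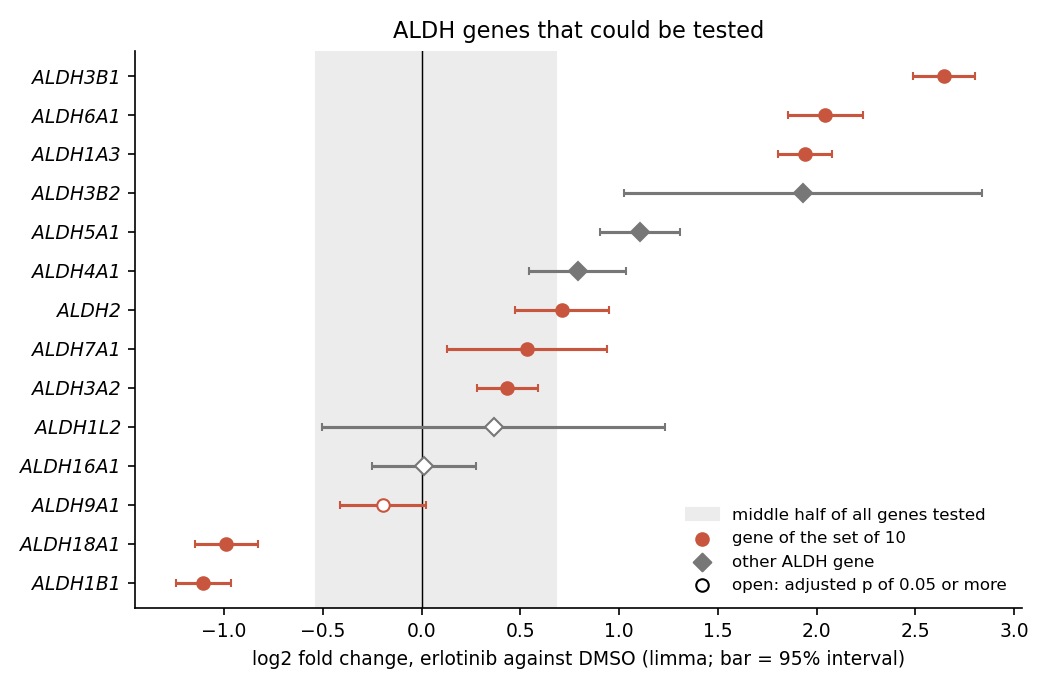
Log2 fold change of erlotinib against DMSO with its 95% interval for the 14 ALDH genes tested (circles, the set of 10; diamonds, other family genes; open symbols, adjusted p of 0.05 or more), over a grey band from the lower to the upper quartile of all genes (-0.53 to 0.68). Of the set, the estimates for ALDH3B1, ALDH6A1, ALDH1A3 and ALDH2 lay above the band and those for ALDH1B1 and ALDH18A1 below it, and ALDH3B2, ALDH5A1 and ALDH4A1 of the other genes also lay above it.

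**Figure D3:**
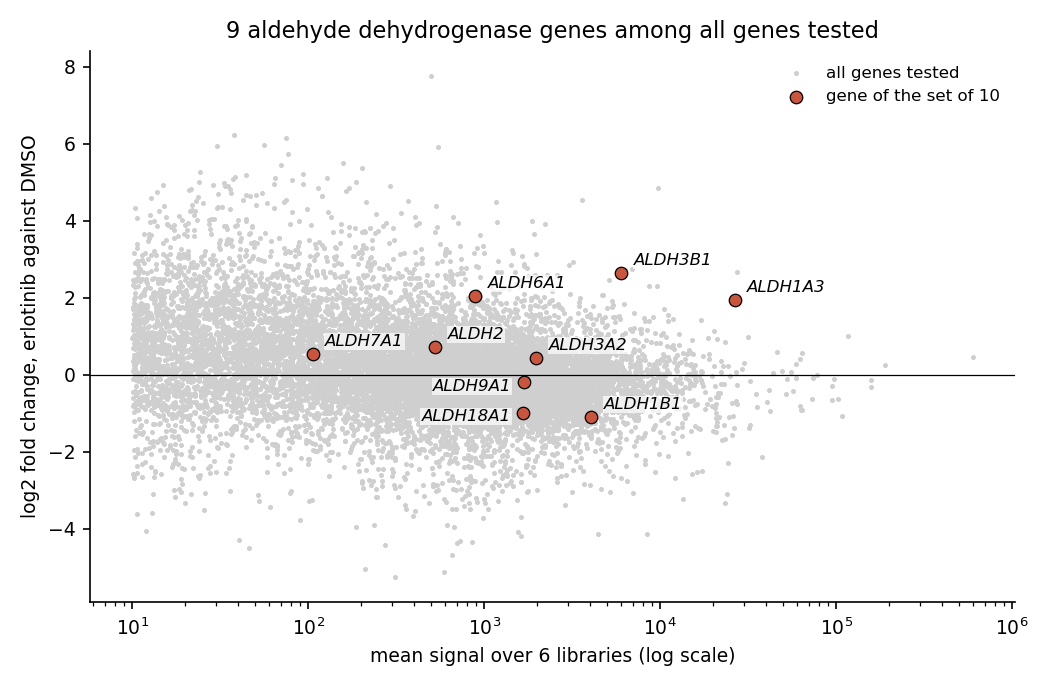
Log2 fold change against mean signal over the 6 libraries (log axis) for 14215 genes (grey) and the 9 tested genes of the set (red). ALDH1A3 combined a rise of 1.94 log2 units with one of the higher mean signals, and ALDH7A1 was the least abundant of the 9.

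Levels of different genes were compared as RPKM, computed from the recovered reads and the length of all annotated exons of a gene. This scale divides by total reads, so ratios of erlotinib to DMSO are somewhat higher than on the signal scale. With DMSO the order was ALDH1A3 (89.2 ± 7.39), ALDH1B1 (77.0 ± 3.16), ALDH9A1 (25.7 ± 3.00), ALDH18A1 (25.6 ± 1.80), ALDH3B1 (10.8 ± 1.05), ALDH3A2 (4.74 ± 0.221), ALDH6A1 (2.25 ± 0.160), ALDH2 (1.79 ± 0.250) and ALDH7A1 (0.210 ± 0.0295). Only the neighbours ALDH9A1 and ALDH18A1 overlapped. With erlotinib the order was ALDH1A3 (388 ± 12.0), ALDH3B1 (76.6 ± 2.20), ALDH1B1 (40.5 ± 1.07), ALDH9A1 (25.6 ± 4.05), ALDH18A1 (14.6 ± 0.483), ALDH6A1 (10.5 ± 0.0380), ALDH3A2 (7.24 ± 0.0603), ALDH2 (3.30 ± 0.241) and ALDH7A1 (0.344 ± 0.0184), with no overlap between neighbours. On this length ALDH3B1 went from the fifth to the second place and ALDH1B1 from the second to the third. ALDH1A3 was above 97.6% of the tested genes with DMSO and above 99.8% with erlotinib.

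The 19 ALDH genes listed together had a summed level of 249 ± 7.09 RPKM with DMSO and 588 ± 12.6 RPKM with erlotinib. ALDH1A3 made up 34.3%, 38.0% and 35.2% of that sum in the DMSO libraries and 66.2%, 65.3% and 66.5% in the erlotinib libraries. Its share was therefore higher in every erlotinib library. ALDH1B1 went from 31.0% ± 2.12 to 6.90% ± 0.226 of the sum and ALDH3B1 from 4.36% ± 0.540 to 13.0% ± 0.179. Without ALDH1A3 the family summed to 160 ± 0.340 RPKM with DMSO and 199.9 ± 0.862 RPKM with erlotinib. Part of this difference comes with the scaling to total reads. Under it the median log2 fold change of all genes tested was 0.19, beside 0.02 on the signal scale. The ratio of ALDH1A3 to ALDH1B1 was 1.16 ± 0.146 with DMSO and 9.57 ± 0.372 with erlotinib. With 3 libraries in each group, an exact permutation test of such a sum could not go below p = 0.1, so none was run.

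Exon length changed some of these levels. With the length of the MANE Select transcript ALDH7A1 stood at 0.790 RPKM with DMSO, ALDH1A3 at 137, ALDH3A2 at 19.6 and ALDH3B1 at 25.5, and the share of ALDH1A3 was 39.9% with DMSO and 63.3% with erlotinib. On that length ALDH3B1 made up 7.45% with DMSO and 19.1% with erlotinib, and ALDH1B1 23.1% and 4.43%. With the longest transcript the shares were 42.4% and 71.1% for ALDH1A3, 3.78% and 10.3% for ALDH3B1, and 24.6% and 4.97% for ALDH1B1. With DMSO, ALDH3B1 was in the sixth place on the longest transcript, below ALDH3A2 (12.2 and 14.3 RPKM), and on the MANE Select length it was in the fifth place but overlapped with ALDH18A1. ALDH3A2 was above ALDH18A1 with erlotinib on that length and on that of the longest transcript. Bowtie2 does not split reads at introns, and the ALDH1B1 transcript has 2 exons where those of the other 9 genes have 10 to 18, so the level of ALDH1B1 beside the others may be overstated by an amount that was not tested.

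**Figure D4:**
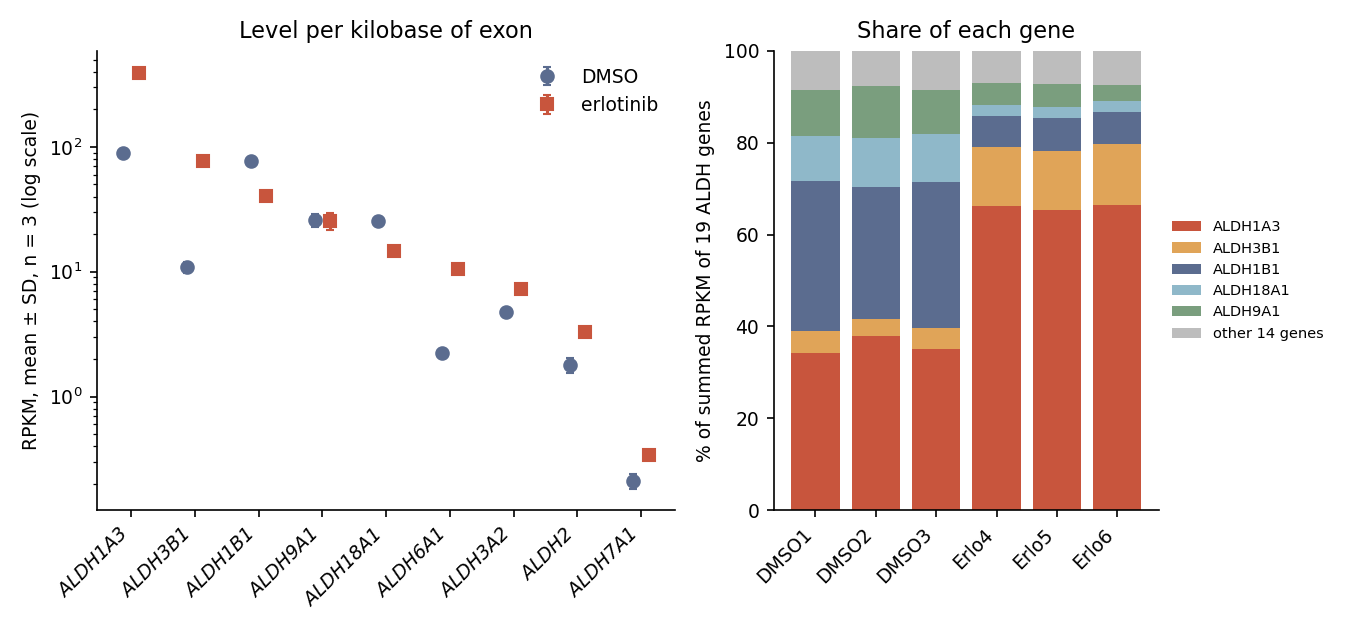
Left, RPKM (log axis, mean ± SD, n = 3) of the 9 detected genes of the set with DMSO (circles) and erlotinib (squares). Right, percent of the summed RPKM of 19 ALDH genes that each of 5 genes and the other 14 together contributed in every library, where ALDH1A3 covered 34.3% to 38.0% with DMSO and 65.3% to 66.5% with erlotinib.

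Of the 9 ALDH genes outside the set, 5 were tested, 3 were higher (35.3% of all genes) and 0 lower (35.4%). Besides ALDH3B2, ALDH5A1, which removes succinic semialdehyde in GABA breakdown, had signals of 463, 495 and 460 with DMSO and 1024, 932 and 1105 with erlotinib (log2 fold change 1.11, SE 0.10, adjusted p = 2.0e-09, limma). ALDH4A1, which works in proline breakdown opposite to ALDH18A1, had signals of 444, 349 and 420 with DMSO and 661, 638 and 799 with erlotinib (0.79, SE 0.12, adjusted p = 4.6e-06, limma). Neither gene overlapped between the groups. ALDH1L2 (0.36, 95% interval -0.50 to 1.23) and ALDH16A1 (0.01, 95% interval -0.25 to 0.27) passed in neither direction, and ALDH1L2 ranged from 0.14 without the erlotinib library in column 6 to 0.79 without that in column 5. ALDH1A2 and ALDH1L1 had 0 reads, ALDH3A1 had 1 read with DMSO and 2 with erlotinib, and ALDH8A1 had 2 and 9. The antisense RNAs ALDH1L1-AS1 and ALDH1L1-AS2 had 0 reads.

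Beside ALDH activity, other markers of progenitor-like and drug-tolerant cells were listed. Of 13, 10 were tested, 6 were higher (35.3% of all genes) and 4 lower (35.4%), around a median log2 fold change of 0.57. SOX2, a stem cell transcription factor, rose from a mean signal of 223 ± 22.5 to 1574 ± 162 (log2 fold change 2.82). CD24 (2.31), the histone demethylase KDM5B (1.33) and the efflux pump ABCB1 (0.99) were higher, and the efflux pump ABCG2 (-1.52), KLF4 (-0.83), CD44 (-0.33) and ALCAM (-0.30) were lower. Under scaling to total reads CD44 stood at -0.15 and ALCAM lost its call (-0.12, adjusted p = 0.09, limma), which left 3 genes lower. The ALDH genes moved in both directions, as the plot of calls by list shows.

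**Figure D5:**
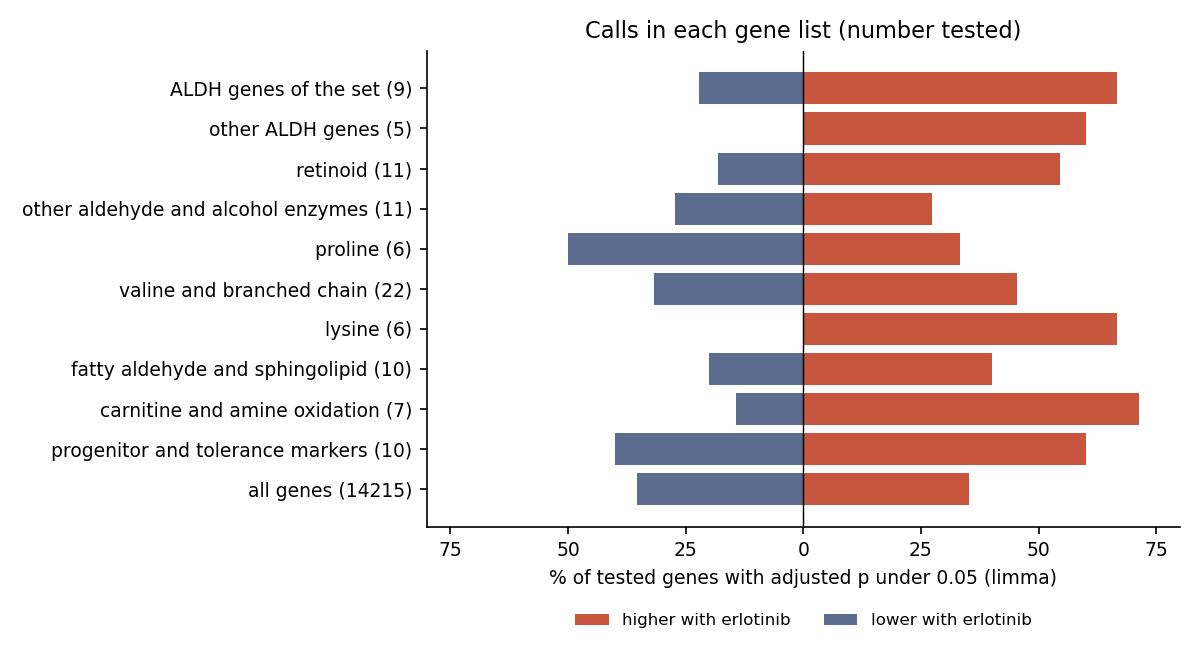
Percent of the tested genes of each list that were higher (right, red) or lower (left, blue) with erlotinib at an adjusted p under 0.05 (limma), with the number tested in parentheses and all 14215 genes at the bottom (35.3% higher, 35.4% lower). The set held 6 higher and 2 lower genes of 9, and the lysine list and the other ALDH genes held 0 lower. PIPOX and CRYM (lysine) and PAOX (carnitine and amine oxidation) are counted here although their DMSO means were below 10.

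The cells carried epithelial and lung lineage markers, which do not tell HCC827 from other lung lines. The epithelial genes EPCAM, CDH1, KRT8, KRT18, KRT19 and CLDN4 had mean signals of at least 7876 in both groups, although KRT8 (log2 fold change -0.83), KRT18 (-1.25) and KRT19 (-0.39) were lower and CLDN4 (0.93) was higher with erlotinib. Of the lung lineage genes NKX2-1 had 3002 and 8644 and NAPSA 986 and 3733 with DMSO and erlotinib, while SFTPB had at most 13 reads in a library. Of 15 markers of leukocytes, endothelium, fibroblasts and hepatocytes, 8 had at most 6 reads in every library, among them PTPRC, CD3E, COL1A2, DCN and ALB, and APOA1 had 0. CD68, the most abundant (2898 and 3394), COL1A1 (77.7 and 216) and VWF (3.94 and 27.5, tested through the erlotinib group alone) were higher with erlotinib. The summed signal of the 15 was 2893 to 3282 with DMSO and 3566 to 3805 with erlotinib, and 107 to 146 and 279 to 359 without CD68. Their part in the ALDH values was not tested. In bulk RNA, fewer cells with a transcript and less of it in each cell cannot be told apart.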

How the data were processed

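Poly(A) RNA of 6 HCC827 libraries was sequenced. The authors mapped reads to GRCh38 with Bowtie2 2.3.4 and counted them per gene with featureCounts 1.6.3, and their processing notes also name DESeq2 1.18.1. The signal deposited by the authors, described as raw counts, is reads divided by a size factor per library: 100% of values were whole multiples of 1 step per library within 0.001. The strand counted is not given in the sources used here. All sample columns were used. Erlotinib columns are numbered 4 to 6 and could be assigned to their group only.

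Signal was tested with limma 3.58.1 in R 4.3.3, with a trend of variance on mean, on log2(signal + 1) for 14215 genes whose mean signal was at least 10, two-sided, with Benjamini-Hochberg adjustment over all of them and a threshold of 0.05. Fold changes on this scale understate those of low genes. Replicates differed by more than counting noise (chi-square over its degrees of freedom, 4.05 to 22.9). In simulated data for this comparison with 200 changed genes of 14215, limma recovered 92 of 98 at 1 log2 unit and 102 of 102 at 2 units, with 15 false calls. The simulation gave every gene the same dispersion and changed far fewer genes than the 70.7% called in the data. It therefore does not measure the error of the calls made here. RPKM was computed from recovered reads and exon lengths of GENCODE 44, found for 97.0% of tested genes. Positions and promoters came from RefSeq on GRCh38.p14, and copies of transcripts were searched for with minimap2 2.31-r1302, and near-complete copies on alternate contigs were found for 4 of 127 genes searched, 0 of them ALDH genes and all 4 list genes that were not tested.

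The 10 genes, the lists and the alternatives were chosen with earlier results of these data known. Named were all ALDH genes, genes overlapping them and up to 4 genes called in each direction with the largest change in each list, of which a few are not reported here. Alternatives were total-read and TMM scaling, edgeR 4.0.16 and DESeq2 1.42.0 on recovered reads, pseudocounts of 0.1 and 10, other filters, a threshold of 0.01, leaving out each library, and other exon lengths, of which the MANE Select length was added after seeing the data. Figures were drawn with matplotlib 3.10.9 in Python 3.11.15.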

Additional observations from a re-analysis of the deposited data

How the results depend on the processing

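Over 15 alternatives, 4323 to 6156 of all genes were higher with erlotinib and 3955 to 5080 lower, and 4559 to 5127 and 4721 to 5080 when each library was left out. In the set of 10, 5 to 6 genes were higher and 2 to 3 lower. The log2 fold change ranged from 1.91 to 2.12 for ALDH1A3, from 2.56 to 2.83 for ALDH3B1, from -1.15 to -0.93 for ALDH1B1 and from -1.02 to -0.81 for ALDH18A1, and each kept its call. ALDH7A1 also lost its call at a threshold of 0.01. ALDH16A1, not called, changed sign without DMSO replicate 2 or the erlotinib libraries in columns 4 or 5 (leaving out each library gave -0.12 to 0.082, with -0.02 and -0.0047 in the latter cases), and GLUD1 reached 0.0027 under scaling to total reads; the cause was not tested. Of 14 ALDH genes, 11 kept direction and call in every alternative they could be tested in, as did 44 of the 48 genes that the naming rule took from the lists. The exceptions there were CBR4, PYCR1, GLUD1 and ALCAM. The 44 include PIPOX, CRYM and PAOX, which were tested through the erlotinib group alone. PAOX could be tested in only 11 alternatives. With at least 10 reads required in every library, 2 genes of the lysine list and 3 of the carnitine and amine list were higher. ALDH3B2 could not be tested with at least 10 reads in every library. No paired analysis was possible because the erlotinib columns carry numbers that match no sample title. The replicate block was therefore not run.

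ALDH1A1 and 4 family genes outside the set were below the mean signal of 10 needed for the test, so whether they differed was not tested. The step of 1 read is coarse for ALDH3B2, PIPOX, CRYM, PAOX and VWF with DMSO.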
